A study of Mus musculus with 6 samples.

Results

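The change of the skeletal muscle transcriptome from day to night was described in aged mice on a regular diet (RD). The comparison set the RD library of ZT18, in the dark and active phase, against the RD library of ZT6, in the light and resting phase, where ZT (Zeitgeber Time) counts hours from lights on. It covered 20311 of the 26294 genes in the deposited table, those with a mean value of at least 1 over the 6 libraries of the series. The other 4 libraries came from mice on a high-fat diet (HF) or on a high-fat diet with 0.1% nobiletin (HF.NOB), a citrus flavonoid that acts on the ROR nuclear receptors, again at ZT6 and ZT18. All were total RNA of calf muscle of male C57BL/6 mice aged 24 to 26 months after 5 to 6 months of diet, and the RD mice received no drug. Each diet and time had 1 library, so the RD comparison is a ratio of 2 libraries and has no replicate check and no test of its own. A figure legend of the study gives several biologically independent samples for its RNA-seq while the labels list 1 library per diet and time, so whether a library stands for 1 mouse or for several is not settled here.

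The deposited values are reads multiplied by 1 factor per library, with 1 read worth 0.956 to 1.33 units, and the libraries held 23248663 to 31837501 reads on genes (23676252 for RD at ZT6 and 26470781 for RD at ZT18). The share of reads on genes of the mitochondrial genome was 7.55% to 10.47%. All 12 genes that define skeletal muscle were abundant in both RD libraries, among them Acta1, the skeletal actin, at 888447 and 788392. Of 10 liver markers, 6 had no read in either RD library, while the HF library of ZT18 stood apart with an albumin (Alb) value of 885 against at most 9.34 elsewhere. The HF.NOB library of ZT6 stood apart as well. Across 10006 protein-coding genes whose mean reached 100, the HF.NOB night-day fold followed transcript length (Spearman 0.74), whereas the RD fold (0.02) and the HF fold (0.00) did not. These correlations are across genes, which are not independent replicates.

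Most cells of the body keep daily time with a feedback loop of transcription. BMAL1 (gene Arntl) pairs with CLOCK or NPAS2 and switches on genes that carry an E-box, among them Per and Cry, whose proteins then block the pair, and Nr1d1 and Nr1d2 (REV-ERBs), whose proteins repress Arntl at elements (ROREs) that the RORs activate. A further layer is made by the PAR bZIP activators DBP, TEF and HLF and their opponent NFIL3, which share the D-box. In skeletal muscle this loop, feeding, activity and the daily surge of glucocorticoid hormone all impose daily rhythms on genes of fuel use. With 2 times of day, a gene that peaks midway between them can show no difference.

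Clock output genes and repressors were among the genes with the largest night-day ratios on RD. The D-box activator Dbp was 6.07-fold lower at night, Ciart, a repressor of the BMAL1 and CLOCK pair, 9.6-fold lower and the REV-ERB gene Nr1d1 4.27-fold lower, whereas Nfil3 was 4.61-fold higher. Past a threshold of 1.5-fold, 3 of the 20 clock genes lay above and 6 below, 1 of the latter (Rorb) on 3 reads. The same threshold was passed upward by 2296 of the 20311 genes (11.3%) and downward by 2486 (12.2%), but most of these had few reads. Among the 11766 genes whose mean reached 50, the shares were 2.25% upward (265 genes) and 1.67% downward (196 genes), and 18 of the 20 clock genes belonged to that class.

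The width of the folds depended on level. Between a mean of 1 and 10, 60.7% of 5496 genes lay past 1.5-fold in either direction, against 6.28% of 5872 genes between 50 and 500 and 1.56% of 5191 genes between 500 and 5000. For genes whose mean reached 50, the 5th to 95th percentiles of the fold ran from -0.37 to 0.41 on the log2 scale of (value + 1), which serves as the background for the genes below. A log2 fold of single genes is given on this scale, ZT18 over ZT6, unless a fold ratio is named, and it understates the change of low genes. Of all 20311 genes, 9568 (47.1%) had a fold above 0 and 10474 one below 0. Among the 11766 genes whose mean reached 50, 5632 (47.9%) lay above 0 and 6134 below. These are the background for counts of list members above or below 0.

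**Figure D1:**
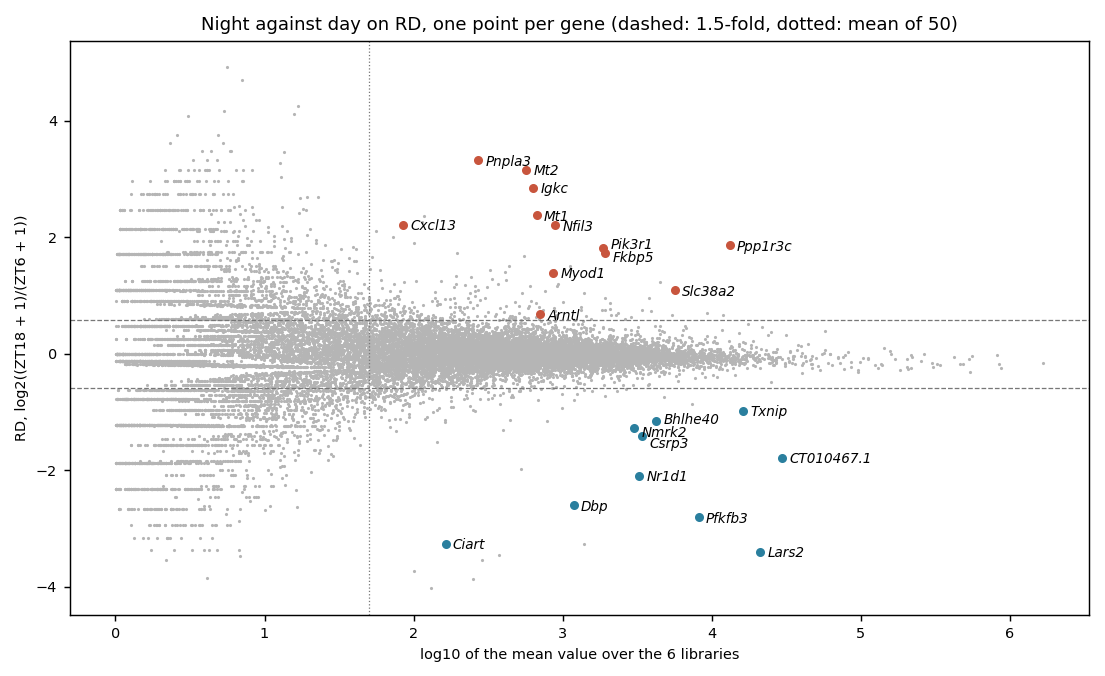
Log2 fold of ZT18 over ZT6 on RD (y axis, values plus 1) against the log10 mean value over the 6 libraries (x axis), 1 point per gene for 20311 genes, with dashed lines at 1.5-fold and a dotted line at a mean of 50. Named genes above 0 are red and those below 0 blue. The cloud narrows to the right, and Pnpla3 (3.32), Mt2 (3.16), Ppp1r3c (1.86), Pfkfb3 (-2.81) and Dbp (-2.60) lie far outside it.

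Among the activators, Arntl was the member higher at night. Its values were 637 at ZT6 and 1021 at ZT18 on RD, 330 and 775 on HF, and 509 and 978 on HF.NOB. Its 3 night values all lay above its 3 day values (log2 folds 0.68, 1.23 and 0.94). How many of all genes separate night from day in this way was not counted. Such a separation is therefore only a description, here and below. Clock (1623 and 1651) and Rora (6192 and 5958) had RD folds of 0.03 and -0.06, inside the background. Npas2, at 41.4 and 28.3, had few reads, with a counting interval of its fold from -1.31 to 0.21. Rorb had 3 reads at ZT6 and 0 at ZT18 on RD and gives no fold.

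The repressors of the loop were lower at night in 8 of 10 cases, with a median of -0.50 against -0.01 over all genes. Nr1d1 had values of 6267 and 1467 on RD, 4831 and 1138 on HF, and 3818 and 1959 on HF.NOB. Its 3 night values all lay below its 3 day values. Nr1d1 (chromosome 11, 98767932 to 98775333, minus strand) overlaps the end of Thra on the other strand, and whether reads were counted by strand is not given in the sources used here. Thra itself, with RD values of 2293 and 1937, had a fold of -0.24. Nr1d2, its paralogue, had 4368 and 3042 on RD, a fold of -0.52.

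Ciart had values of 356 and 36.2 on RD, 285 and 49.6 on HF, and 201 and 57.4 on HF.NOB, so every night value was under the lowest day value. Its RD fold of -3.26 had a counting interval of -3.83 to -2.77, which covers counting error only. Bhlhe40, which binds E-boxes in competition with the activators, went from 5937 to 2680 on RD, 5886 to 2796 on HF and 4904 to 3271 on HF.NOB, again without overlap between night and day. Its relative Bhlhe41 had an RD fold of -0.47 (1321 and 951).

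The Period and Cryptochrome genes did not move as a block. Per3 was lower at night on RD (1354 and 707, fold -0.94) and on HF (-0.99), and not on HF.NOB (0.16). Per1 (2242 and 1890) and Per2 (637 and 550) had RD folds of -0.25 and -0.21, inside the background. Cry1 was higher at night (375 and 612, fold 0.71), again without overlap over the 3 diets, and Cry2 had a fold of 0.05 (2657 and 2756).

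Of the D-box factors, Dbp and Nfil3 were furthest apart. Dbp (chromosome 7, 45705088 to 45710203) had values of 1983 and 326 on RD, 2234 and 398 on HF, and 1878 and 304 on HF.NOB, and its night-day folds were -2.60, -2.49 and -2.62. Nfil3 had values of 332 and 1535 on RD, 306 and 1197 on HF, and 677 and 1283 on HF.NOB. All 3 night values exceeded the 3 day values, with folds of 2.2, 1.96 and 0.92. Hlf had an RD fold of -0.51 (637 and 446) and Tef, the steadiest of the group, one of -0.11 (10840 and 10064). Of 12 modulators of the clock, such as kinases and F-box proteins that act on PER and CRY, 1 lay above 1.5-fold and 0 below (median 0.02).

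**Figure D2:**
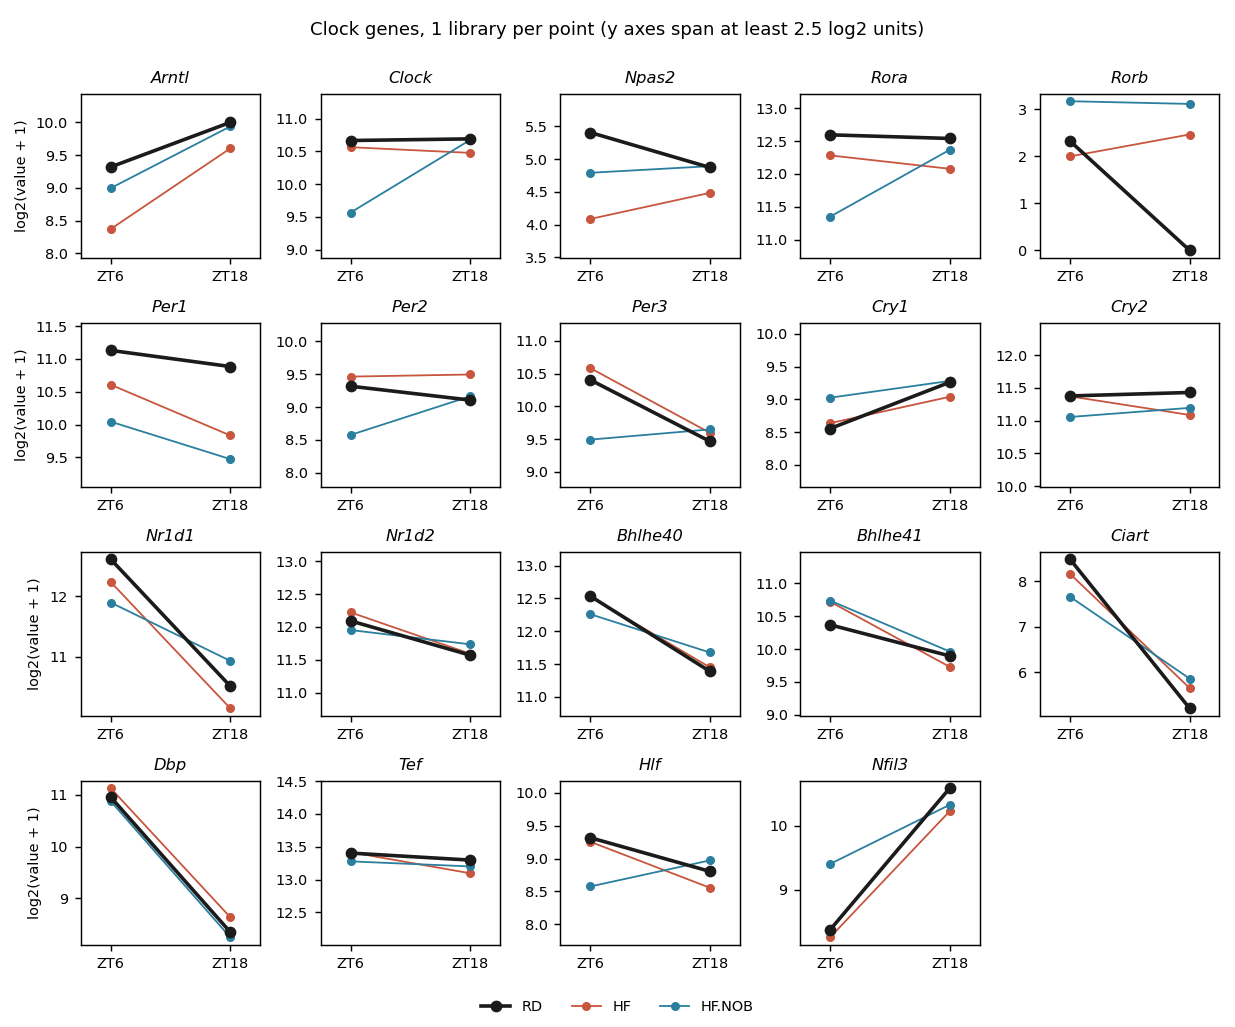
Log2(value + 1) of the clock genes, 1 gene per panel (y axes, each spanning at least 2.5 log2 units) at ZT6 and ZT18 (x axis), 1 library per point, with lines joining the libraries of a diet (black RD, red HF, blue HF.NOB). The lines of Dbp run nearly together (folds -2.60, -2.49 and -2.62), Nfil3 and Arntl slope upward on all 3 diets, and Per3 slopes downward on RD (-0.94) and HF (-0.99) only.

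The night-day ratios on RD, HF and HF.NOB share no library, so a test of time across the diets could use them as 3 repeats. In limma with diet and time as terms (6 libraries, 2 residual degrees of freedom), 1 of 20311 genes passed an adjusted p of 0.05, a share of 0.00492%. This was Dbp, which fell by 2.57 on the log2 scale (95% interval -2.89 to -2.25, adjusted p = 0.00453, lower in 3 of 3 diets). At an unadjusted p under 0.05 there were 755 genes (3.72%), and edgeR's quasi-likelihood test on the recovered reads called 2 genes. Without the HF.NOB libraries, limma called 127 genes higher (0.625%) and 65 lower (0.32%) with 1 residual degree of freedom, and edgeR called 665 in all. In that limma fit 11 of the 20 clock genes passed, Arntl, Cry1 and Nfil3 higher and Per3, Nr1d1, Nr1d2, Bhlhe40, Bhlhe41, Ciart, Dbp and Hlf lower. As the RD libraries are part of that fit, this is no separate check of the RD folds. Without the HF libraries limma called 0 genes and without the RD libraries 3. The part of the HF.NOB library of ZT6 in these counts was not tested beyond leaving its diet out.

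Promoter sequences show which clock elements lie next to these genes. Of the 20 clock genes, 17 had entries in a RefSeq table for GRCm38.p6 that covers 250 bases before to 50 bases after each start. Searched on both strands, the E-box CACGTG was present for 5 of the 17 genes (29.4%, against 8.09% of 27025 genes in the table), its variant CACGTT for 4 (23.5%, against 5.44%), the RORE core AGGTCA for 5 (29.4%, against 18.1%) and the D-box TTATGTAA for 1 (5.88%, against 1.11%). The D-box form TTACGTAA was present for 0 of the 17, against 0.126%. The windows below are those of 4 clock genes with large or opposite night-day folds and of 2 genes outside the clock, picked because they held motifs. Of 13 genes outside the clock with large folds that were searched, a set chosen after their values were seen, 7 held a motif, 5 of them the E-box CACGTG, and 6 held none (Mt1, Mt2, Pnpla3, Pik3r1, Nmrk2 and Csrp3). The share of all genes that hold any of these motifs was not counted, so the count of 7 has no background. Capitals mark these motifs on either strand, so that TGACCT and TTACATAA are the RORE core and the D-box read from the other strand. A match is a description of letters, not of a bound site.

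Ciart, lower at night, with 3 E-boxes at 116, 58 and 44 bases before the start (chr3:95882179-95882478, minus strand): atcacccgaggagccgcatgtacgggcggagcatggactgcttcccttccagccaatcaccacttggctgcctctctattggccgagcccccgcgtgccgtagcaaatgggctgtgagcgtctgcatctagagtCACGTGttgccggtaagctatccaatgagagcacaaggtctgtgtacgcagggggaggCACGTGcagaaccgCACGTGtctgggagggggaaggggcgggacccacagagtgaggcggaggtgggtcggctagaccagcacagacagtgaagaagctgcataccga

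Per3, lower at night on RD and HF, with 2 D-boxes at 205 and 158 bases before the start (chr4:151044616-151044915, minus strand): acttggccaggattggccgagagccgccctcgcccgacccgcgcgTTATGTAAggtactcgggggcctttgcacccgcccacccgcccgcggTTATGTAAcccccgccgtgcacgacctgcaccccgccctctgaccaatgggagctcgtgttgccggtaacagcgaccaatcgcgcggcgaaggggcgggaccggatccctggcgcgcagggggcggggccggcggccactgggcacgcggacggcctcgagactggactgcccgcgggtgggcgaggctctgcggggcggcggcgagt

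Arntl, higher at night, the 1 of its 2 entries that held a motif, with 1 RORE core after a T, 32 bases into the transcript (chr7:113207261-113207560, plus strand): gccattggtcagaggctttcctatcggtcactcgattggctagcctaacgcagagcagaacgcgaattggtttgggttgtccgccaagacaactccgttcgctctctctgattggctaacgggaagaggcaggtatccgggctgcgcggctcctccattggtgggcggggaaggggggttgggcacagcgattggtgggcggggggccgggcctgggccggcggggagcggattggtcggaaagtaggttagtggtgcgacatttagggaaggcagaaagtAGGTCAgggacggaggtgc

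Nfil3, higher at night, with 1 RORE core on the reverse strand 12 bases before the start (chr13:52980990-52981289, minus strand): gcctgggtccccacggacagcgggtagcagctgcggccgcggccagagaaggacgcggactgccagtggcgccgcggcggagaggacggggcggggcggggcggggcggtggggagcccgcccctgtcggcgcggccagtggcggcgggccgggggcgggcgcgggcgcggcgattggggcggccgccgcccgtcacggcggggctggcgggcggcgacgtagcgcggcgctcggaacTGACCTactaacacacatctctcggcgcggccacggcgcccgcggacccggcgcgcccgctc

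Coq10b, lower at night on each diet, with 1 D-box at 162 and 1 E-box at 78 bases before the start (chr1:55052520-55052819, plus strand): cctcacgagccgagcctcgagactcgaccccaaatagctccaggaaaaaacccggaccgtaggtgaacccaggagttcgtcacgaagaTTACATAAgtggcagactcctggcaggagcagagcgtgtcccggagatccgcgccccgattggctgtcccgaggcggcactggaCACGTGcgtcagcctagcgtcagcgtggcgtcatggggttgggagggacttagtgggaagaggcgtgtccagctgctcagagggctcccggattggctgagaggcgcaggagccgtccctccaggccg

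Ppp1r3c, higher at night on each diet, with 1 CACGTT at 189 and 1 E-box at 104 bases before the start (chr19:36736555-36736854, minus strand): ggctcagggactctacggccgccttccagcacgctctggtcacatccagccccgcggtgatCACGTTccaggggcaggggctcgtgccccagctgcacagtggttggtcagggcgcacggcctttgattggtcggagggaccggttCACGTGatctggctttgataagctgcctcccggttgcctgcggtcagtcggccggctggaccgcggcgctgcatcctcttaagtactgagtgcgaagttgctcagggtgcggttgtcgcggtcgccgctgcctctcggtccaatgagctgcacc

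In these printed windows the E-box stood beside genes with opposite night-day folds, Ciart (-3.26) and Coq10b (-1.31) on one side and Ppp1r3c (1.86) on the other. The entry of Dbp held none of the motifs in these 300 bases, which says nothing of the rest of the gene.

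Genes that respond to glucocorticoid hormone were higher at night as a group. Of 20 genes, 18 had a fold above 0 and 13 passed 1.5-fold upward (65%, against 11.3% of all genes and 2.25% of those whose mean reached 50), 0 passed it downward, and the median was 0.80 against -0.01 over all genes. Fkbp5, a co-chaperone of the glucocorticoid receptor, went from 1324 to 4400 on RD, a 3.32-fold difference, and from 720 to 1959 on HF, but from 1659 to 1515 on HF.NOB. Arrdc2, an arrestin-domain gene chosen after its values were seen, had RD values of 845 and 2290. Not all known targets took part. Klf9 (4093 and 4111) and Klf15 (1512 and 1501), transcription factors that were also chosen after their values were seen, had RD folds of 0.01 and -0.01. The list had a median of 0.51 on HF and -0.51 on HF.NOB. Of its 20 genes, 8 passed the limma fit of RD and HF, all higher, where 0.625% of all genes did. The RD libraries are part of that fit, so this count is no separate check of the RD folds. The list was chosen with earlier results of these data known.

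The metallothioneins Mt1 and Mt2, small proteins that bind zinc and copper, had the largest folds of that list. Mt2 had values of 234 and 2099 on RD, 145 and 206 on HF, and 609 and 132 on HF.NOB. Mt1 had 382 and 1985 on RD, 224 and 349 on HF, and 887 and 201 on HF.NOB. The RD night library was above all 5 others for both genes, and their HF.NOB folds (-2.20 and -2.14) had the opposite sign to those on RD (3.16 and 2.38). The genes lie next to each other on chromosome 8 (Mt2 from 94172664 to 94173568, Mt1 from 94179082 to 94180327) and are alike in sequence. How reads that fit more than 1 gene were counted is not given in the sources used here.

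Fuel genes with the largest folds were single steps rather than whole pathways. Pnpla3, a lipase and acyltransferase of lipid droplets, had the highest RD fold of the 11766 genes whose mean reached 50. Its values were 68.1 and 690 on RD, 94.8 and 313 on HF, and 199 and 262 on HF.NOB, so that the RD night value was the highest of the 6 and the RD day value the lowest. Its RD fold of 3.32 had a counting interval of 2.93 to 3.75. It was the 1 gene of 21 in the lipid synthesis list past 1.5-fold (list median 0.12). Lipid droplet coats and lipases lay above 0 for 13 of 14 genes (median 0.17), led by G0s2, the inhibitor of the lipase ATGL, at 367 and 822. Only 2 of the 14 passed 1.5-fold upward (14.3%, near the 11.3% of all genes).

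In glycogen and glucose handling, Ppp1r3c, a targeting subunit that brings protein phosphatase 1 to glycogen, went from 6715 to 24387 on RD, 5228 to 16353 on HF and 10809 to 15446 on HF.NOB. Each night value exceeded each day value. Of the 20 glycogen genes, 2 passed 1.5-fold upward (10%, near the share of all genes) and the median was -0.03. Pfkfb3, which makes fructose 2,6-bisphosphate, the activator of glycolysis, went the other way, from 20198 to 2883 on RD and 11467 to 2933 on HF, with 6060 and 5556 on HF.NOB. It was the 1 gene of 22 in the glycolysis list past 1.5-fold (list median -0.05). Txnip, which restrains glucose uptake and was chosen after its values were seen, had a value of 9278 in the RD night library and 16133 to 18488 in the 5 others.

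Of 23 insulin signalling genes 2 passed 1.5-fold upward (8.7%, against 11.3% of all genes), and the median was 0.08. Pik3r1, the regulatory subunit of PI 3-kinase, went from 1034 to 3660 on RD and from 1176 to 2071 on HF, with 1578 and 1705 on HF.NOB. Tbc1d1, which controls the traffic of the glucose transporter GLUT4, was higher at night on each diet (RD 2593 and 5044, folds 0.96, 0.78 and 1.38). Among genes of the fasting response, Foxo1 had RD values of 681 and 1558, and the ubiquitin ligase genes Trim63 (8111 and 13238) and Fbxo32 (18816 and 26823) had folds of 0.71 and 0.51. Of these 29 FOXO, atrophy and autophagy genes, 2 passed 1.5-fold upward (6.9%, under the share of all genes) and 0 downward (median 0.09).

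Some genes of fat use that were higher at night on HF were not higher on RD. Pdk4, which shuts pyruvate dehydrogenase, had RD values of 11753 and 10258 (fold -0.20, inside the background), against 22975 and 51473 on HF (1.16) and 21693 and 39619 on HF.NOB (0.87). Ucp3, a mitochondrial uncoupling protein, had 2263 and 1557 on RD (-0.54) against 3398 and 6642 on HF (0.97) and 3237 and 5301 on HF.NOB (0.71). Angptl4, an inhibitor of lipoprotein lipase, had few reads on RD, at 68.1 and 45.3 (-0.58), against 202 and 721 on HF (1.83) and 369 and 340 on HF.NOB (-0.12). For the 18 PPAR targets of muscle the median was -0.07 on RD with 7 above 0, 0.22 on HF with 17 above 0, and -0.13 on HF.NOB with 6 above 0. The HF library of ZT18 is the one with liver transcripts, whose part in its values was not tested. On RD 2 of the 18 passed 1.5-fold upward (11.1%, against 11.3% of all genes), Acot1, an acyl-CoA thioesterase (21.4 and 46.4, fold 1.08), and the lipid droplet coat gene Plin4 (10943 and 17438, fold 0.67), which had folds of 0.46 on HF and 0.77 on HF.NOB. In limma, none of Pdk4, Ucp3 and Angptl4 passed the test that the RD time effect differed from that of both high-fat diets (adjusted p = 1.0 for each), a fit with 1 residual degree of freedom in which 1 gene of 20311 (0.00492%) was called.

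Nuclear genes of the respiratory chain were slightly and broadly lower at night. Among the 11766 genes whose mean reached 50, 6134 were lower at night. Of the 81 respiratory chain genes, 78 were lower, with a median of -0.16 and a range of -0.32 to 0.42, and 0 passed 1.5-fold. Mitochondrially encoded genes (12 of 13 lower, median -0.17), the TCA cycle (20 of 23, median -0.10) and fat oxidation (20 of 26, median -0.09) shared the direction, as did fibre genes, with 12 of 12 slow fibre genes (median -0.22) and 13 of 14 fast fibre genes (median -0.16) lower. Each of these medians kept its sign under every setting tried. For the respiratory chain the median ran from -0.17 to -0.12 over the scalings and was -0.10 after adjustment for transcript length. For ribosome biogenesis, 33 of 35 genes had folds above 0 and the median was 0.14, while cytosolic ribosomal proteins were close to 0 (median -0.04, turning sign under 2 settings). With 1 library a side, these shifts cannot be told apart from a difference between the RD mice sampled. The respiratory chain median was 0.03 on HF with 53 genes above 0, and -0.89 on HF.NOB with 0 above 0 and 68 past 1.5-fold downward, the comparison whose folds followed transcript length.

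**Figure D3:**
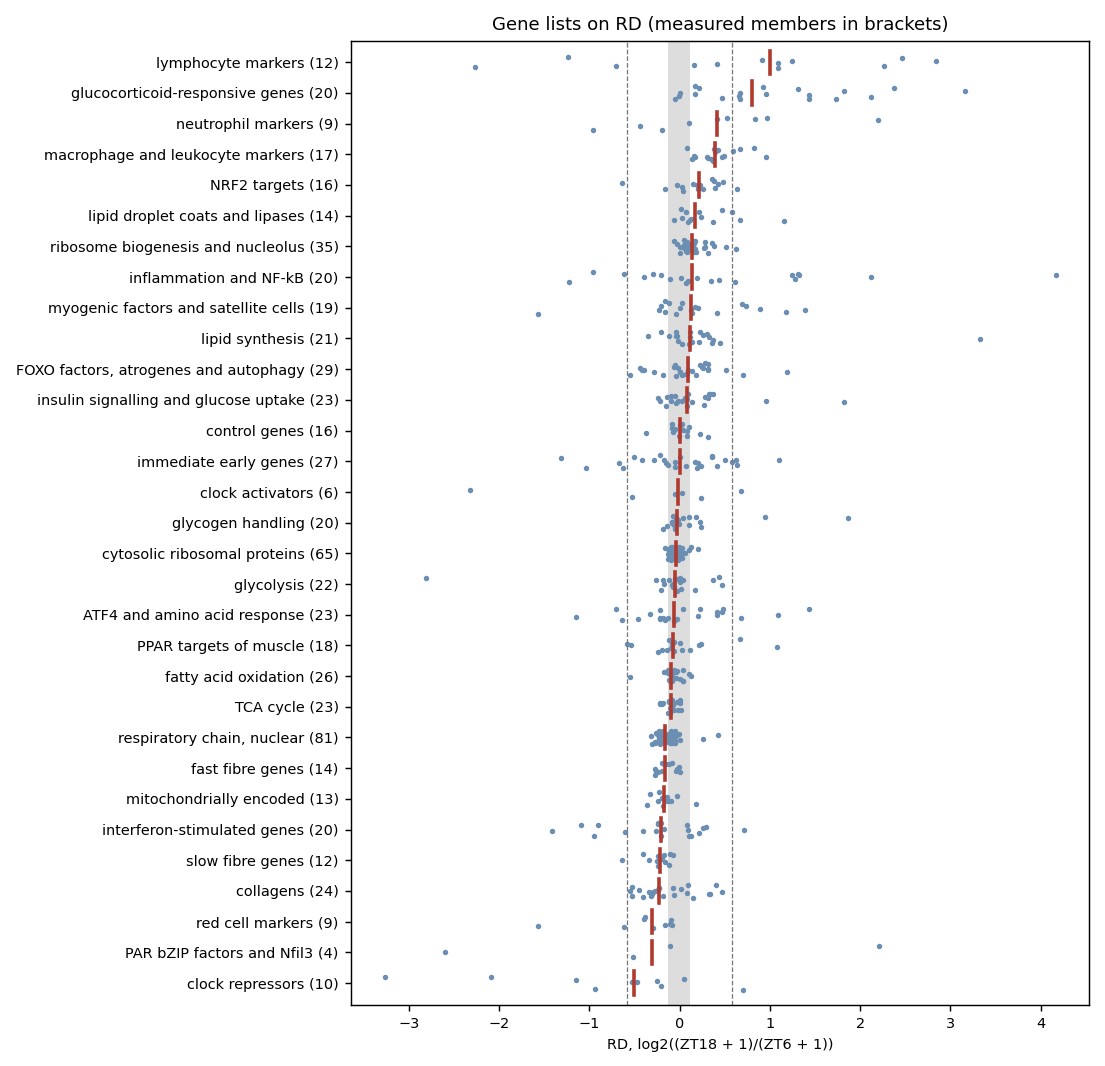
Log2 folds of ZT18 over ZT6 on RD (x axis) for the members of 31 gene lists (y axis, with the number measured), 1 point per gene spread vertically at random, red bars at the median and dashed lines at 1.5-fold. The grey band spans the quartiles (-0.13 to 0.12) of the genes whose mean reached 50. Lymphocyte markers (1.0) and glucocorticoid-responsive genes (0.80) have the highest medians and clock repressors (-0.50) the lowest, while the 81 respiratory chain genes form a narrow group at -0.16. Most lymphocyte markers had few reads, and their median was 0.41 at a minimum mean of 10.

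The myogenic factor genes Myod1, Myog and Myf6 had folds above 0 on RD and HF. Myod1, the myogenic factor known to follow the clock in muscle, had values of 514 and 1347 on RD, 438 and 1016 on HF, and 888 and 960 on HF.NOB. Myog (94.7 and 216) and Myf6 (3115 and 5192) had RD folds of 1.18 and 0.74, and of -0.69 and -0.71 on HF.NOB. Sdc4, a proteoglycan of satellite cells, had an RD fold of 0.89 (633 and 1170). In the list of myogenic and satellite cell genes, 5 of 19 passed 1.5-fold upward (26.3%, against 11.3% of all genes) and 1 downward (5.26%, against 12.2%). In the limma fit of RD and HF 4 passed, all higher, where 0.625% of all genes did. That fit holds the RD libraries, so it is no separate check of the RD folds. Of 16 genes of the acetylcholine receptor and denervation, Hdac9, a histone deacetylase, was at 312 and 160, and the median was -0.05.

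Other genes with large folds fell outside the lists. Kcnf1, a potassium channel subunit, had RD values of 432 and 1386, Slc25a30, a mitochondrial carrier, 103 and 344, and Lonrf3 29.4 and 121. All 3 were at least 1.5-fold higher at night on each diet. On the lower side, Nmrk2, a kinase of the NAD precursor nicotinamide riboside in muscle, had 4159 and 1720 on RD, 4108 and 1940 on HF, and 3702 and 2469 on HF.NOB, with no overlap of night and day. Coq10b, a protein of coenzyme Q function, had RD values of 512 and 206, Wnt5b, a secreted signal, 104 and 40.7, and Fam83d 224 and 78.1. Csrp3, which encodes the muscle LIM protein of the Z-disc, had 5802 and 2187 on RD and 2298 and 3163 on HF, and its RD day value was the highest of the 6. Klf11 (188 and 82.6) and Klf5 (133 and 58.8) had folds of -1.18 and -1.17 on RD and of 0.55 and -0.17 on HF.

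Amino acid transport and stress genes went both ways. Slc38a2, a glutamine and alanine transporter, had values of 3325 and 7071 on RD, 3456 and 7307 on HF, and 3770 and 8863 on HF.NOB. The night values were all above the day values, with folds of 1.09, 1.08 and 1.23. Ddit4, an inhibitor of mTORC1, had RD values of 235 and 635 (1.43). Chac1, which degrades glutathione, had 1461 and 659. The list of ATF4 and amino acid response genes had 3 of 23 genes higher and 3 lower by 1.5-fold (13% each way, near the shares of all genes, median -0.06). Of 16 NRF2 targets 13 had folds above 0 (median 0.21), with the haem oxygenase gene Hmox1 at 175 and 272. Of 27 immediate early genes 4 passed 1.5-fold upward and 4 downward (14.8% each way, near the 11.3% and 12.2% of all genes), with Nr4a3 at 117 and 252 and Junb at 258 and 162.

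**Figure D4:**
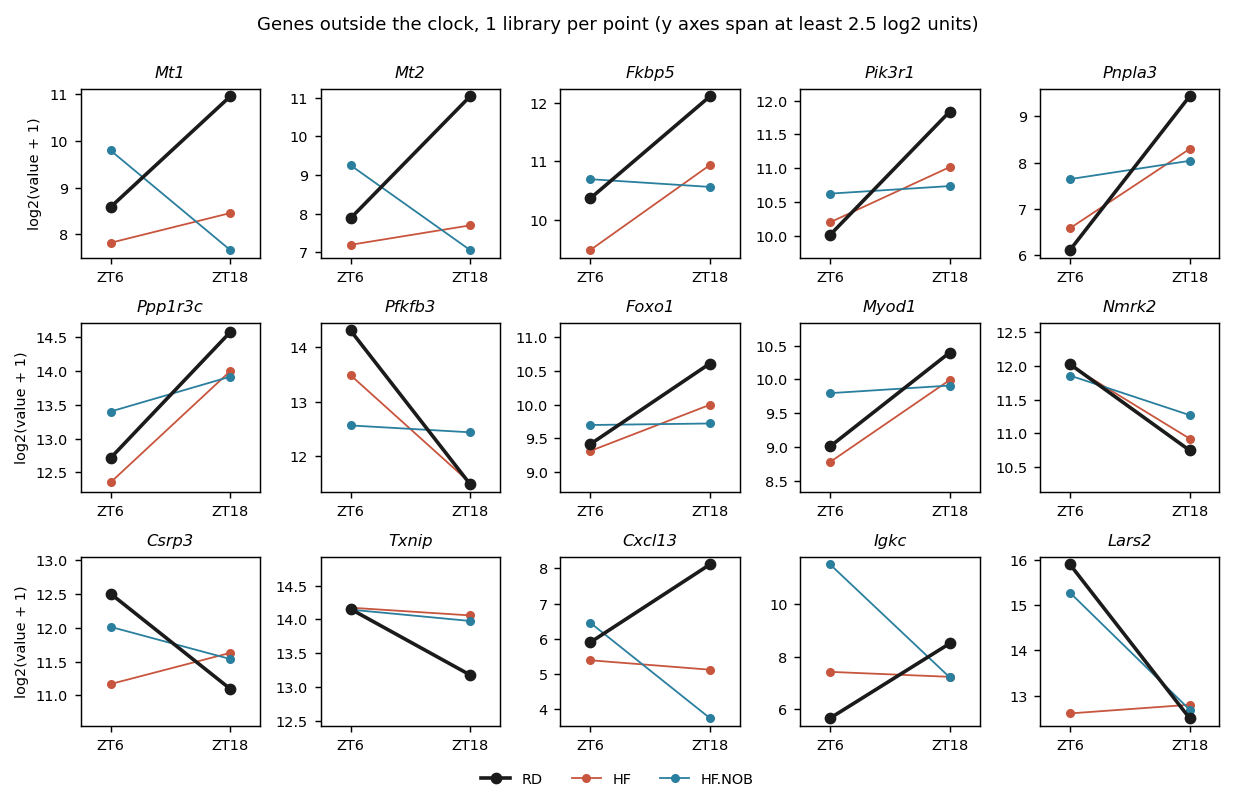
Log2(value + 1) of 15 genes outside the clock (y axes, each spanning at least 2.5 log2 units) at ZT6 and ZT18 (x axis), 1 library per point, with lines joining the libraries of a diet (black RD, red HF, blue HF.NOB). Ppp1r3c slopes upward and Nmrk2 downward on all 3 diets, Mt1 and Mt2 slope upward on RD (2.38 and 3.16) and downward on HF.NOB (-2.14 and -2.20), and Lars2 is high at ZT6 on RD and HF.NOB only.

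Macrophage and leukocyte transcripts were higher in the RD night library, while lymphocyte markers went both ways. All 17 macrophage and leukocyte markers were higher, against 47.1% of all genes (median 0.39, summed value 7590 and 9252). Cd163, a scavenger receptor of resident macrophages, was at 418 and 738 and Cd14 at 56.0 and 110. In bulk RNA, more cells of a type and more RNA per cell cannot be told apart. Of 12 lymphocyte markers 7 passed 1.5-fold upward (58.3%, against 11.3% of all genes) and 3 downward (25%, against 12.2%), most of them at few reads. Between a mean of 1 and 10, 60.7% of all genes lay past 1.5-fold in either direction. Their summed value went from 3927 to 5547, nearly all of it from Ighm, the constant part of the mu heavy chain, at 3825 and 5081 (fold 0.41, under the threshold). The list median of 1.0 ranged from 0.41 to 1.3 over the settings tried. Igkc, the constant part of the kappa light chain, had values of 49.4 and 361 on RD, 170 and 149 on HF, and 2919 and 147 on HF.NOB, and Jchain 13.3 and 67.9 on RD. For both genes the RD day value was the lowest of the 6 libraries. Immunoglobulin genes are near copies of each other, so their counts are uncertain.

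Cxcl13 and Lcn2, genes of secreted proteins of inflammation, were also high in that library. Cxcl13, a chemokine for B cells, had values of 58.7 and 276 on RD, 40.9 and 33.8 on HF, and 86.7 and 12.4 on HF.NOB. Lcn2, an acute-phase protein, had 37.4 and 165 on RD and at most 86.7 elsewhere. The chemokine gene Cxcl10 went the other way, at 29.4 and 14.7 on RD (fold -0.95). Neutrophil markers went from a sum of 184 to 296, with 6 of 9 higher and 3 lower, and with S100a8 at 44.0 and 79.2. Of 20 inflammation genes 7 passed 1.5-fold upward (35%, against 11.3% of all genes) and 3 downward (15%, near the 12.2% of all genes), with a median of 0.14 and with Il6ra at 267 and 650 and Cebpd at 199 and 495. Interferon-stimulated genes did not share this direction, with 1 of 20 past 1.5-fold upward (5%) and 5 downward (25%, against 12.2% of all genes) and a median of -0.21, among the latter Ifit1 (135 and 71.3) and Ifi44 (61.4 and 28.3). Red cell markers were lower in 9 of 9 cases (sum 7897 and 6693, Hbb-bs 2800 and 2146). The part of these cell types in the folds of Mt1, Mt2, Cxcl13 and Lcn2 was not tested.

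Leptin (Lep), the hormone of fat cells, was 34.7 and 101 on RD and 517 and 801 on HF. The adipocyte markers as a whole had 5 of 14 genes above 0 (median -0.09), with adiponectin (Adipoq, chosen after its values were seen) at 164 and 161. Collagens were lower in 16 of 24 cases (median -0.23), with Col3a1 at 1944 and 1346, and among matrix genes Fbn1, which encodes fibrillin, had 1388 and 797. Control genes had a median of 0.01, with 0 of 16 past 1.5-fold.

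Some of the lowest folds came from loci that are annotated as ribosomal RNA, lie beside such a locus, or are known in mouse to take up its reads. Lars2, a mitochondrial leucyl-tRNA synthetase, had values of 61349 and 5792 on RD, 6225 and 7108 on HF, and 39778 and 6605 on HF.NOB. CT010467.1, of annotation type rRNA on chromosome 17, had 46041 and 13382 on RD, 13124 and 14729 on HF, and 75991 and 14839 on HF.NOB. With 6 further such loci, a list put together after the values were seen, the summed value was 114472 at ZT6 and 19993 at ZT18 on RD, 121275 at ZT6 on HF.NOB, and 20329 to 22985 in the 3 other libraries. All 8 loci were high in the same 2 day libraries. The part of ribosomal RNA in the Lars2 value was not tested.

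Outside the clock, the limma fit of RD and HF without the HF.NOB libraries called several of the genes above. Those that rose included Ppp1r3c (adjusted p = 2.19e-06), Fkbp5 (8.05e-06), Slc38a2 (2.2e-05), Myod1 (4.15e-05), G0s2 (0.000149), Tbc1d1 (0.000237), Pnpla3 (0.00183) and Pik3r1 (0.00471). Those that fell included Pfkfb3 (2.2e-05), Nmrk2 (2.42e-05), Fam83d (0.00262) and Chac1 (0.00308). Mt2 did not pass (adjusted p = 0.098), nor did Lars2 (0.372), Igkc (0.425) or Csrp3 (0.706). This fit sets 2 libraries against 2, and the RD libraries are part of it. Many of these genes were named for large RD folds, so the fit is no separate check of them. It also holds the HF library of ZT18 with liver transcripts. In the limma fit of all 6 libraries none of these genes passed, with adjusted p = 0.831 for Ppp1r3c and 0.847 for Fkbp5 and Pnpla3.

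The RD folds were partly shared with HF and less with HF.NOB. Of the 265 genes of that level that passed 1.5-fold upward on RD, 86 (32.5%) also did so on HF, where 2.19% of all 11766 genes did, and 1 passed it downward. They made up 33.3% of the 258 such genes on HF. Of the 196 lower genes, 37 (18.9%) were also lower on HF, against 1.41% of all, and 11 were higher. On HF.NOB, 70 of the higher genes (26.4%) went the same way and 73 the opposite way, where 16.6% of the 11766 genes passed 1.5-fold upward and 16.6% downward. Past 1.5-fold in the same direction on all 3 diets were 37 genes higher and 8 lower. Besides the clock and fuel genes above, these included Odf3l2, a gene chosen after its values were seen, with RD values of 639 and 1808 and folds of 1.5, 1.56 and 1.47, which was the other gene called by edgeR.

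**Figure D5:**
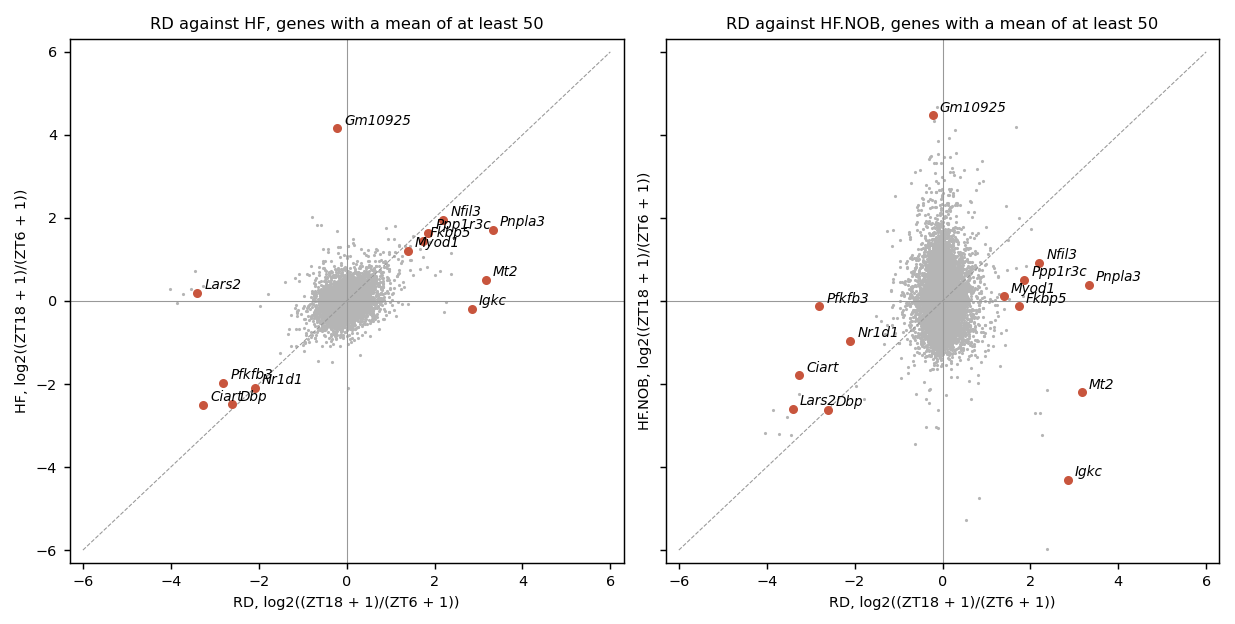
Log2 folds of ZT18 over ZT6 on HF (left) and HF.NOB (right, y axes) against those on RD (x axes) for the 11766 genes whose mean reached 50, 1 point per gene, with named genes in red and a dashed line of equality. Dbp lies on the line in both panels (-2.60 on RD, -2.49 on HF and -2.62 on HF.NOB), Mt2 and Igkc lie at the right of both and low on HF.NOB (-2.20 and -4.30), and Lars2 is far left in both but near 0 on HF (0.19).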

How the data were processed

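RNA-seq had been done on total RNA of calf muscle, with 1 library for each of 3 diets and 2 times. According to the methods and the submitters' processing notes, the authors aligned reads to mm10 with TopHat2 2.0.12 and quantified genes with Cufflinks 2.2.1. How reads that fit several genes were counted, and whether strand was used, is not given in the sources used here. Per the table itself, the authors deposited 1 table of scaled gene signal values, labelled as read counts, in which every value is a whole number of reads times 1 factor per library (100% whole within 0.001), so reads were recovered by dividing by that factor.

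The RD fold was log2((ZT18 + 1)/(ZT6 + 1)) for genes with a mean value of 1 or more, with a threshold of 1.5-fold and no test. Intervals are 95% and cover counting error only. Time across diets was tested with limma 3.58.1 on log2(value + 1) with diet and time as terms, and with edgeR 4.0.16 (quasi-likelihood) on the recovered reads, each with Benjamini-Hochberg adjustment over 20311 genes. P-values measure only the spread between these libraries. Symbols came with GENCODE M21 annotation, matched by gene ID without version (99.4%). Promoters are RefSeq entries of GRCm38.p6. Named were the genes of 3 clock lists, the 15 highest and 15 lowest RD folds at a mean of 50 or more, up to 4 members of each other list with the largest folds, and genes called across diets. Some genes of these sets are not reported here. Any other gene is named as one picked with its values known. The members and lists were chosen with earlier results of these data known. Fits and folds were tested on simulated data. R 4.3.3 and Python 3.11.15 were used.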

Additional observations from a re-analysis of the deposited data

Results flagged for a closer look

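The time effect on RD differed from that on the high-fat diets for 1 gene in limma and 11 genes in edgeR's quasi-likelihood test on recovered reads (361 at an unadjusted p under 0.05, and 393 in limma), both with 1 residual degree of freedom. Gm10925, an unprocessed pseudogene on chromosome 1 chosen after its values were seen, had values of 21.4 and 18.1 on RD, 20 and 373 on HF, and 25.3 and 582 on HF.NOB. Its RD minus high-fat difference was -4.54 in log2 in limma (adjusted p = 0.0177) and -4.6 in edgeR (adjusted p = 7.02e-06). A pseudogene can share reads with the gene it copies, and its count is uncertain.

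The other 10 genes, called by edgeR alone, had a higher night-day fold on RD than on the high-fat diets. The differences were 4.03 for Mt2 (adjusted p = 3.03e-08) and 3.13 for Mt1 (0.000107), the metallothioneins, and 3.69 for the chemokine gene Cxcl13 (0.000107) and 3.35 for Lcn2 (0.0111). Neutrophil and macrophage genes gave 3.86 for S100a8 (0.00275), 4.34 for S100a9 (0.000183) and 7.28 for Chil3 (0.00408). Genes of antibody-producing cells gave 5.18 for Igkc (6e-11), 4.12 for Jchain (9.57e-05) and 7.33 for Igkv3-2 (2.1e-09). The RD values of Chil3 (1.33 and 24.9) and Igkv3-2 (4.0 and 24.9) were near the floor, as 1 read was worth 1.33 at ZT6. Their differences are therefore uncertain in size. All 10 were highest or next to highest at ZT6 on HF.NOB, the library that also stood apart in the relation of fold to transcript length, and its part in these differences was not tested.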

How the results depend on the processing

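Of the main counts at 1.5-fold, genes higher at night on RD (2296) and genes lower at night on RD (2486), a pseudocount of 5 left 1315 and 1406. With a minimum mean of 10 they were 755 and 693, and with a threshold of 2-fold 1320 and 1376. Without blood, leukocyte and liver markers, immunoglobulin genes and rRNA-like loci, a choice made after seeing the data, the counts were 2237 and 2465. The median of all genes stayed between -0.019 and 0.022. Of 92 named genes past 1.5-fold, 6 came under it in at least 1 setting and 0 turned sign, and 9 of 54 list medians, all near 0 apart from that of the liver markers (0 to 0.546), took another sign or 0 in at least 1 setting. The time test across diets, with 1 gene in limma, gave 2 in edgeR, 3 without the RD libraries, 0 without the HF libraries, 192 without the HF.NOB libraries and 665 in edgeR without them, the last chosen after seeing the data. The difference of RD from the high-fat diets gave 11 genes in edgeR against 1. The causes were not tested. No analysis paired by replicate number was possible because each diet and time has 1 library. The diet term pairs night with day within a diet in the test across diets, and without that term limma also called 1 gene. With 1 library a side, the RD folds carry counting error and the difference between the mice sampled, and 60.7% of genes with a mean of 1 to 10 lay past 1.5-fold.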
